A study of Mus musculus with 7 samples.

Results

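Astrocytes are the glial cells that clear transmitter and potassium from the space around neurons, pass small molecules to each other through gap junctions and wrap blood vessels with their endfeet. After injury, infection or protein deposition they become reactive: they enlarge, build more intermediate filament and secrete acute phase proteins, and markers of this state are also known to increase with age in mouse brain. The genes described here are 10 mouse genes, taken by symbol as known astrocyte markers and reactive astrocyte genes. They are the cytoskeletal and secreted reactive genes Gfap, Vim and Serpina3n, the transporters Slc1a2 and Slc1a3, the glutamine synthetase gene Glul, the water channel gene Aqp4, the gap junction gene Gja1, the folate enzyme gene Aldh1l1 and the calcium-binding protein gene S100b. All 10 were found among the 48526 genes of the deposited table, 1 row each, and all 10 were among the 17896 genes abundant enough to be tested.

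The RNA came from brains of mice with the V1S and SV2 constructs. The labels mark them as DT and name Venus, a fluorescent protein. The on group holds 4 libraries, labelled glucose, and the off group holds 3 libraries, labelled Dox, and all 7 libraries come from mice of 24 months. The promoter that drives the constructs, the cells that make them, the brain region and a possible pooling of animals have no entry in the labels used here, and mice without the constructs are not analysed here. Since every off library carries Dox and no on library does, an effect of the drug and one of the constructs cannot be told apart. Nothing in the labels says whether the libraries stem from different animals, and p-values then measure only the spread between these libraries.

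Values are regularized logarithms (rlog) as deposited, on a log2 scale, so a difference of 1 is a doubling of the normalized read number before shrinkage. The transformation pulls the values of a gene toward their mean, most strongly for genes with few reads. The read depth behind the values is unknown, which leaves no basis for counting intervals. In bulk tissue, fewer astrocytes and less RNA per astrocyte cannot be told apart. The tissue carried markers of all the cell types looked at: every one of 12 microglia, 10 oligodendrocyte, 8 neuron, 7 endothelial and 6 mural cell markers was abundant enough to be tested. Across libraries, the deviation of a gene from its mean was related to transcript length, with Spearman's rho over genes, which are not independent replicates, of -0.06 in on replicate 1 and 0.27 to 0.29 in its 3 fellow on libraries, against -0.32 to -0.23 in off. With GC content, rho was 0.18, -0.46, -0.14 and -0.30 in on replicates 1 to 4, against -0.11, 0.23 and 0.58 in off replicates 1 to 3. For that reason the differences of the 10 genes, and of the related genes named, are also given after removal of a trend with GC content and transcript length. The length trend partly followed the groups, so its removal can also take away part of a difference between them.

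RefSeq promoter sequences on GRCm38.p6 matched 9 of the 10 genes, all but Aqp4. The promoters of Gfap and Serpina3n are shown because these genes varied most between libraries and were low or high in largely the same ones, and that of Slc1a3 because it was the only member whose on and off values did not overlap. Each is the stretch of 250 bases before the start in the RefSeq table, written 5′ to 3′ on the strand of the gene. For Gfap this is also a transcript start in GENCODE M21, 3712 bases inside the gene as annotated there. For Serpina3n and Slc1a3 it lies 21 and 43 bases before the first GENCODE start. Capitals mark matches to the letters searched for, on both strands. The letters were TTCNNNGAA for STAT factors. For factors of the AP-1 family they were TGANTCA, and the last motif searched was the TATA box, spelled TATAAA. The Gfap window is chr11:102897201-102897450, minus strand, the Serpina3n window is chr12:104406458-104406707, plus strand, and the Slc1a3 window is chr15:8710808-8711057, minus strand.
Gfap: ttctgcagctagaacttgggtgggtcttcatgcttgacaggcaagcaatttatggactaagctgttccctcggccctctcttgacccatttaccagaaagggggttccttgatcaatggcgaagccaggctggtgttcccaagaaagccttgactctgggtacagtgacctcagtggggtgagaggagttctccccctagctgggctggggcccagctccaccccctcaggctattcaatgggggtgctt
Serpina3n: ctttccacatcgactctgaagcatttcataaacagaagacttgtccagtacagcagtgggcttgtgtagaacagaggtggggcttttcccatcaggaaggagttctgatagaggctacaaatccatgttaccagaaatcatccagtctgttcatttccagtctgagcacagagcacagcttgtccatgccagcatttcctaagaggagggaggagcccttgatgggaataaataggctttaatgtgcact
Slc1a3: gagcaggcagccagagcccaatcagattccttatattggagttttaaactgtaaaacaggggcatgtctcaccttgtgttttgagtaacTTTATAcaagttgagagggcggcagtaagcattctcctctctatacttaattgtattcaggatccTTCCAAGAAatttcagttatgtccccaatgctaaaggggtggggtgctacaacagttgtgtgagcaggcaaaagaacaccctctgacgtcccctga
The windows of Gfap and Serpina3n held none of these letters. That of Slc1a3 held TTCCAAGAA at 96 to 88 bases before the start and TTTATA, which is TATAAA on the opposite strand, at 161 to 156 bases. Of all 32851 promoter windows of this length, 7.02% held the STAT letters, 6.75% the AP-1 letters and 12.4% TATAAA. Among the 9 matched members, the AP-1 letters were found for Gja1 and TATAAA for Vim and Slc1a3. A match is a description of letters and not a site, and its absence says nothing of the factor.

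None of the 10 genes differed between on and off by limma's moderated test with Benjamini-Hochberg adjustment over all tested genes (0 higher, 0 lower, 10 not past the threshold of 0.05). At an unadjusted p under 0.05 the count was also 0 of 10, against 20.7% of all tested genes. Over all 17896 genes, 2.60% passed the adjusted threshold, 0.816% higher in on and 1.79% lower in on, and 0.583% of genes passed after the GC and length correction, again none of the 10. The differences, on minus off, ran from -0.10 (Serpina3n) to 0.10 (Slc1a2), 4 of them positive and 6 negative, with a median of -0.01, against a median of 0.00 over all tested genes. The 95% intervals of the 10 differences lay between -0.27 and 0.21 on the rlog scale. On that scale they hold ratios, on over off, between 0.828 and 1.157, so changes of these genes beyond that range lie outside the intervals. A p that misses the threshold does not show that the groups are alike.

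**Figure D1:**
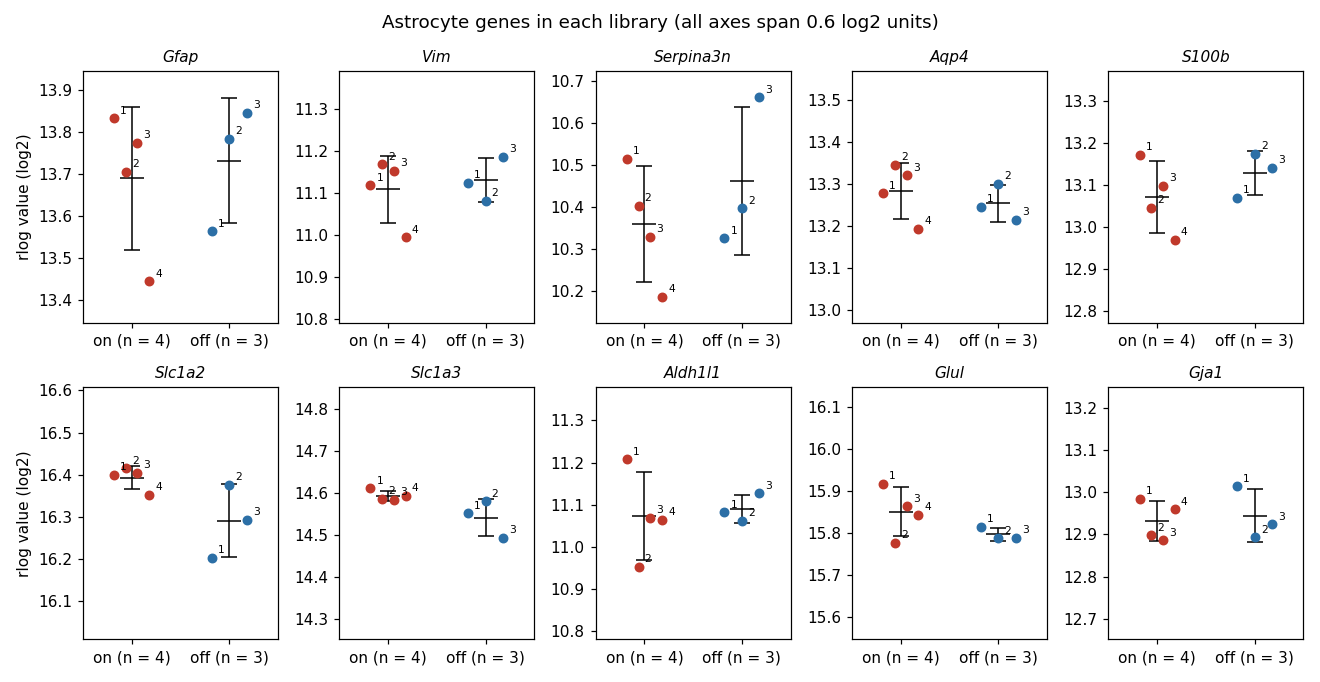
Deposited rlog values (log2) of the 10 astrocyte genes in each library, with on (n = 4) left of off (n = 3); points carry the replicate number, horizontal marks are group means and bars are SD. The groups overlap in 9 of the 10 panels, and Slc1a3 is the panel without overlap.

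Gfap encodes the glial fibrillary acidic protein, the main intermediate filament of mature astrocytes and the usual marker of reactivity. Its rlog value was 13.83, 13.70, 13.77 and 13.44 in on replicates 1 to 4, against 13.56, 13.78 and 13.85 in off replicates 1 to 3. Each group had 1 low library, on replicate 4 and off replicate 1, and the groups overlapped over most of their range. The mean was 13.69 ± 0.17 (SD, n = 4) in on and 13.73 ± 0.15 (SD, n = 3) in off, a difference of -0.04 ± 0.08 (SE, 95% interval -0.22 to 0.13, limma adjusted p = 0.81). The sign was not stable: without on replicate 4 the difference was 0.04, without off replicate 3 it was 0.02, without off replicate 1 it was -0.13, and the GC and length correction gave 0.02 ± 0.07 (SE).

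Serpina3n encodes a secreted serine protease inhibitor that reactive astrocytes make in large amounts. It was at 10.52, 10.40, 10.33 and 10.19 in on replicates 1 to 4, against 10.33, 10.40 and 10.66 in off replicates 1 to 3. As for Gfap, on replicate 4 was the lowest of the 7 libraries and off replicate 3 the highest. The difference was -0.10 ± 0.08 (SE, 95% interval -0.27 to 0.07, limma adjusted p = 0.49), and after the GC and length correction -0.07 ± 0.08 (SE). The difference depended on single libraries in both directions: it was -0.0028 without off replicate 3 and -0.05 without on replicate 4, but -0.17 without off replicate 1, -0.15 without on replicate 1 and -0.13 without off replicate 2. Serpina3n lies in a cluster of related genes, and no label says how reads shared between them were counted, so its value is uncertain to that extent. Of 10 other Serpina3 genes, 9 were below the level needed for the test, and the remaining one, Serpina3g, had a difference of -0.0029 (limma adjusted p = 0.98), or -0.0041 with the correction. Its level per kilobase of exon was 4.03, against 9.36 for Serpina3n, as rlog minus the log2 of the length.

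Vim encodes vimentin, a filament protein that reactive astrocytes increase and that endothelial and other cells of the brain also contain. It was at 11.12, 11.17, 11.15 and 10.99 in on replicates 1 to 4, against 11.12, 11.08 and 11.19 in the off libraries. Only on replicate 4 stood below the off libraries. The difference was -0.02 ± 0.05 (SE, 95% interval -0.12 to 0.08, limma adjusted p = 0.83), with the opposite sign at 0.02 without on replicate 4 and a value of -0.05 without off replicate 2. The GC and length correction gave -0.01 ± 0.05 (SE).

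Slc1a2 encodes GLT-1, which takes up most of the glutamate released in the forebrain. It was at 16.40, 16.41, 16.40 and 16.35 in on replicates 1 to 4, against 16.20, 16.38 and 16.29 in off replicates 1 to 3. The on libraries were tightly grouped, and they overlapped with off replicate 2, which stood above on replicate 4. The mean was 16.39 ± 0.03 (SD, n = 4) in on and 16.29 ± 0.09 (SD, n = 3) in off. The difference of 0.10 ± 0.05 (SE, 95% interval -0.0043 to 0.21, unadjusted p = 0.0586, limma adjusted p = 0.26) was the largest positive one among the 10. Slc1a2 has the longest transcript of the 10, at 11595 bases, and after the GC and length correction the difference was -0.02 ± 0.04 (SE). On the deposited values it was 0.06 without off replicate 1 and 0.15 without off replicate 2.

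Slc1a3 encodes GLAST, the other astrocyte glutamate transporter, which is most abundant in the cerebellum. Its values were 14.61, 14.59, 14.58 and 14.59 in on replicates 1 to 4, against 14.55, 14.58 and 14.49 in off replicates 1 to 3. Every on library stood above every off library, though on replicate 3 exceeded off replicate 2 only in the third decimal. Values did not overlap in 1 of the 10 genes, beside 15.2% of all tested genes. The difference was 0.05 ± 0.04 (SE, 95% interval -0.03 to 0.13, limma adjusted p = 0.47), and 0.03 ± 0.03 (SE) after the GC and length correction. Off replicate 3, the lowest library, carried part of it, with 0.03 left without that library.

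Glul encodes glutamine synthetase, which turns the glutamate taken up by these transporters into glutamine. It was at 15.92, 15.78, 15.86 and 15.84 in on replicates 1 to 4, against 15.82, 15.79 and 15.79 in off replicates 1 to 3. On replicate 2 was the lowest of all libraries, and the other on libraries stood above the off libraries. The difference was 0.05 ± 0.05 (SE, 95% interval -0.04 to 0.15, limma adjusted p = 0.54). After the GC and length correction it was 0.08 ± 0.03 (SE, 95% interval 0.01 to 0.15). That interval leaves out 0, but the corrected difference did not pass either (limma adjusted p = 0.22). On the deposited values it was 0.03 when on replicate 1 was left out.

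Aqp4, the water channel concentrated in astrocyte endfeet, was at 13.28, 13.35, 13.32 and 13.19 in on replicates 1 to 4, against 13.25, 13.30 and 13.22 in the off libraries. On replicate 4 was again the lowest library, and the difference was 0.03 ± 0.04 (SE, 95% interval -0.06 to 0.12, limma adjusted p = 0.73), running from 0.01 without on replicate 2 to 0.06 without on replicate 4. Gja1, which encodes the gap junction protein connexin 43, was at 12.98, 12.90, 12.89 and 12.96 in on replicates 1 to 4, against 13.01, 12.89 and 12.92 in the off libraries. Both groups covered about the same range, and the difference was -0.01 ± 0.04 (SE, 95% interval -0.10 to 0.08, limma adjusted p = 0.90), or -0.03 ± 0.04 (SE) after the GC and length correction.

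S100b, a calcium-binding protein gene of astrocytes that some oligodendrocytes also express, was at 13.17, 13.05, 13.10 and 12.97 in on replicates 1 to 4, against 13.07, 13.17 and 13.14 in the off libraries. On replicate 4 was the lowest library and on replicate 1 stood level with the highest off library, so that the difference of -0.06 ± 0.05 (SE, 95% interval -0.16 to 0.04) did not pass (limma adjusted p = 0.53). It was -0.02 without on replicate 4 and -0.09 without on replicate 1. Aldh1l1, a folate enzyme gene used as a pan-astrocyte marker, was at 11.21, 10.95, 11.07 and 11.06 in on replicates 1 to 4, against 11.08, 11.06 and 11.13 in the off libraries. The on group held both the highest and the lowest of the 7 libraries, with a difference of -0.02 ± 0.05 (SE, 95% interval -0.13 to 0.09, limma adjusted p = 0.89). After the GC and length correction Aqp4, S100b and Aldh1l1 had the opposite sign, at -0.01, 0.02 and 0.00.

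**Figure D2:**
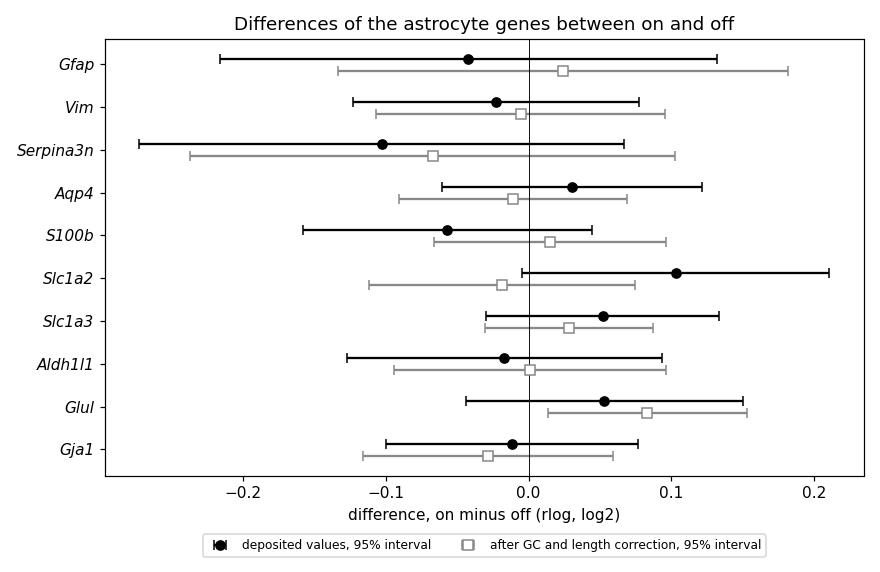
Differences of the 10 astrocyte genes, on minus off, on the rlog scale (log2), from the deposited values (filled) and after the GC and length correction (open); bars are 95% intervals. All 10 intervals from the deposited values include 0, with Slc1a2 nearest to leaving it out. After the correction the interval of Glul, 0.01 to 0.15, leaves out 0, and the other genes' intervals include it.

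The 10 genes differed widely in how much they varied between libraries of the same group. The residual SD of Gfap was 0.16 and that of Serpina3n 0.15, above those of 98.5% and 98.1% of all tested genes, whose median was 0.06. Slc1a3 had a residual SD of 0.03, above that of only 7.58% of tested genes. The remaining members lay between 0.05 for Glul, above 29.1% of tested genes, and 0.08 for Aldh1l1, above 79.4%. From the lowest to the highest library, Serpina3n spanned 0.47, Gfap 0.40 and Slc1a3 0.12. Genes with strongly shrunken low values are among the tested genes, so these percentiles describe rlog values as deposited.

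**Figure D3:**
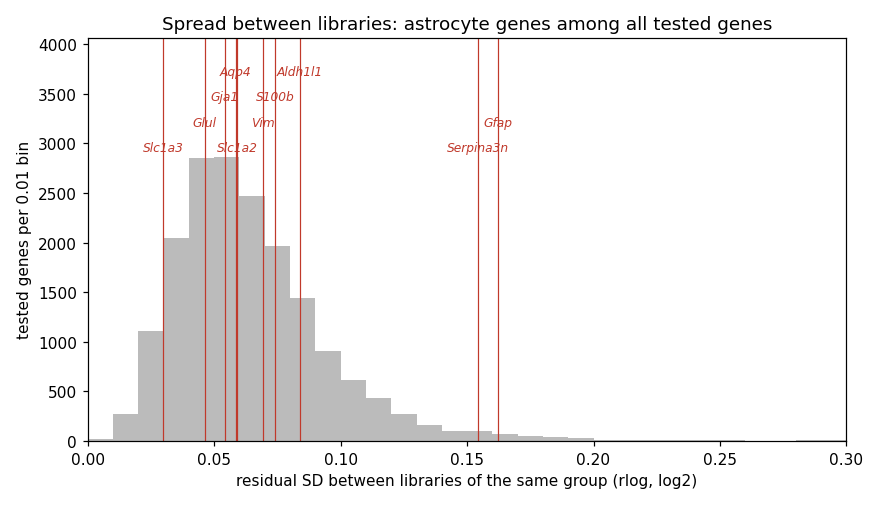
Number of tested genes by residual SD between libraries of the same group (rlog, log2; bins of 0.01; axis ends at 0.3), with vertical lines at the 10 astrocyte genes. Gfap and Serpina3n stand in the upper tail and Slc1a3 in the lower part of the distribution.

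Several of the 10 genes shared their lowest library, while Slc1a3 was the 1 gene whose groups did not overlap. On replicate 4 was the lowest of the 7 libraries for 5 of the 10 genes, Gfap, Vim, Serpina3n, Aqp4 and S100b. On replicate 1 was above the mean of the 7 libraries for 9 of the 10 genes and off replicate 1 below it for 7. The mean deviation over the 10 genes was 0.07, -0.01, 0.01 and -0.08 in on replicates 1 to 4, against -0.04, 0.01 and 0.03 in off replicates 1 to 3. Markers of oligodendrocytes and microglia moved in a similar order. The mean deviation of the 10 oligodendrocyte markers was 0.11, -0.04, -0.04 and -0.11 in on replicates 1 to 4, against -0.05, 0.03 and 0.11 in off replicates 1 to 3, and that of the 12 microglia markers was 0.08, -0.08, -0.01 and -0.13 against -0.04, 0.12 and 0.05. The means of the astrocyte, oligodendrocyte and microglia genes were all lowest in on replicate 4. The 7 endothelial markers ran differently, at -0.23 in on replicate 1 and -0.20 in off replicate 2, with values of 0.02 to 0.14 elsewhere. The means of the neuron and choroid plexus markers were lowest in on replicate 2, and that of the mural markers in off replicate 2. The part of these other cells in the values of the astrocyte genes was not tested.

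**Figure D4:**
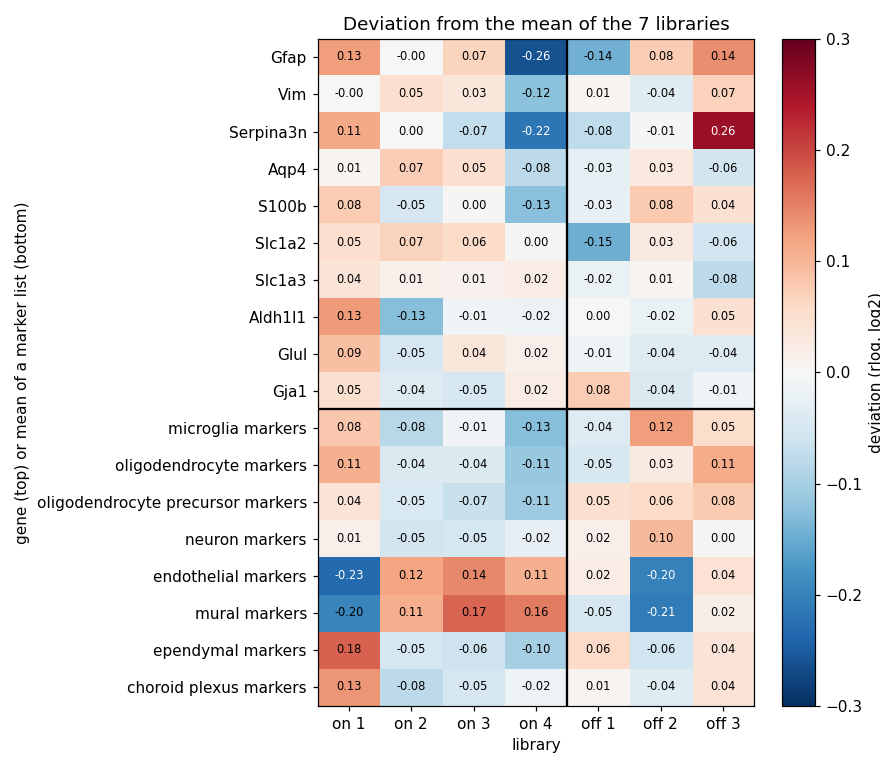
Deviation of each astrocyte gene (top) and mean deviation of marker lists of other cell types (bottom) from the mean of the 7 libraries (rlog, log2), on libraries left of off libraries. On replicate 4 is lowest for Gfap, Serpina3n and the microglia and oligodendrocyte lists, and the endothelial and mural lists are lowest in on replicate 1 and off replicate 2.

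Of the 3 genes whose values over the 7 libraries were nearest to those of Gfap, 1 stood in the astrocyte lists used here, Fabp7. Likeness was the root mean square difference between the deviations of a pair of genes from their own means. It was 0.03 for Klk6, which encodes a secreted serine protease, 0.05 for Lyz2, a lysozyme gene of macrophages and microglia, and 0.05 for Fabp7, the brain lipid-binding protein gene of radial glia and astrocytes, where Gfap itself deviated by 0.14. Klk6 was at 9.42, 9.30, 9.38 and 9.07 in on replicates 1 to 4, against 9.16, 9.43 and 9.53 in the off libraries. On replicate 4 and off replicate 1 were its lowest libraries and off replicate 3 its highest, as for Gfap. Since Klk6 was chosen by its likeness to Gfap over these libraries, this is no separate result. For Slc1a2 the nearest genes were Shank2, which encodes a postsynaptic scaffold, Limch1 and Tnr, which encodes the matrix protein tenascin-R, each at 0.02, where Slc1a2 itself deviated by 0.07. Their longest transcripts have 8988, 5903 and 12202 bases. None of these 6 genes passed the limma threshold between on and off, with adjusted p from 0.13 (Tnr) to 0.74 (Lyz2).

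Levels can be set side by side per length, as rlog minus the log2 of the exon length in kilobases from GENCODE M21. On this per-kilobase scale Glul led at 14.10, above all but 19 of 17837 tested genes with a length. Slc1a2 followed at 12.63 and S100b at 12.53, and the ranges of these neighbours over the 7 libraries overlapped. Gfap at 11.63 and Slc1a3 at 11.48 also overlapped. Below them stood Aqp4 at 10.63, apart from both neighbours. Gja1 at 9.58 and Serpina3n at 9.36 overlapped, as did Aldh1l1 at 8.91 and Vim at 8.87, the lowest of the 10 and still above 78.2% of genes. With the longest transcript in place of all exons Slc1a3 stood above Gfap, Gja1 above Aqp4 and Vim above Serpina3n and Aldh1l1, so part of this order depends on the length used.

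The genes lie on GRCm38 as protein-coding genes: Gfap on chromosome 11 at 102887336 to 102900912, Serpina3n on chromosome 12 at 104406729 to 104414329, Slc1a2 on chromosome 2 at 102658659 to 102790784 and Slc1a3 on chromosome 15 at 8634124 to 8710764. Without the strand setting of the counting, reads from overlapping genes cannot be told apart. Exons of Slc1a2, Aldh1l1 and Glul overlap those of other genes over at most 499 bases. The most abundant of these is Teddm2, opposite to 116 bases of Glul, at a mean rlog value of 6.47.

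Of 166 genes in lists of astrocyte identity, reactive states, signals, glutamate handling, filaments, connexins, endfeet and the S100 and Serpina3 families, 149 were tested and 2 passed, 0 higher and 2 lower in on, beside the 2.60% of all tested genes that passed. The counts at an unadjusted p under 0.05 given for each list stand beside 20.7% of all tested genes. Both genes that passed belong to the S100 family and not to the astrocyte lists proper. Among 40 other astrocyte identity genes, 0 passed in limma, 7 had an unadjusted p under 0.05, and the median difference was -0.02. Those with the smallest p were Mlc1, a membrane protein gene of endfeet, at -0.16 ± 0.05 (SE, adjusted p = 0.084), Sox9, the transcription factor gene of the astrocyte lineage, at -0.16 ± 0.05 (SE, adjusted p = 0.089), and Cst3, which encodes the secreted protease inhibitor cystatin C, at -0.22 ± 0.07 (SE, adjusted p = 0.096). Sox9 was at 9.82, 9.72, 9.65 and 9.75 in on replicates 1 to 4, against 9.89 in each off library, and the groups did not overlap. These 3 genes passed without on replicate 1, with adjusted p of 0.0035 for Mlc1, 0.011 for Sox9 and 0.00077 for Cst3. That fit called 2917 of 17896 tested genes, against 466 with all 7 libraries. The same count stands beside every gene below that passed without on replicate 1. After the GC and length correction Mlc1 was at -0.12, Sox9 at -0.18 and Cst3 at -0.08, none past the threshold.

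Genes of reactive astrocytes other than the 3 members did not pass either. Of 10 genes induced in most reactive states, 0 passed in limma, 2 had an unadjusted p under 0.05, and the median was 0.05. Cp, which encodes the copper-carrying ferroxidase ceruloplasmin, had a difference of 0.22 ± 0.06 (SE, adjusted p = 0.057) and Osmr, an oncostatin M receptor gene, of 0.21 ± 0.07 (SE, adjusted p = 0.12), with Cd44 at 0.10 (adjusted p = 0.40). After the GC and length correction these 3 were at 0.16, 0.14 and 0.03. Osmr was at 7.79, 8.04, 8.08 and 8.05 in on replicates 1 to 4, against 7.81, 7.75 and 7.80 in the off libraries, so that on replicate 1 stood with the off libraries. Cp and Osmr passed without on replicate 1, with adjusted p of 0.0030 and 0.0034, and Cp also without off replicate 1 (adjusted p = 0.042). Beside these values, the endothelial list stood at -0.23 in on replicate 1 and at 0.12, 0.14 and 0.11 in on replicates 2 to 4, and the mural list at -0.20 in on replicate 1 and at 0.11, 0.17 and 0.16 in on replicates 2 to 4; the part of vascular cells in Cp and Osmr was not tested.

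Genes grouped in earlier work as A1, the state induced by lipopolysaccharide, and A2, that induced by ischaemia, were tested for 11 genes each. In both lists 0 passed in limma, with 1 and 3 genes at an unadjusted p under 0.05 and medians of -0.01 and 0.00. The smallest p were those of Ggta1 (0.15), Iigp1 (0.14) and Fbln5 (0.08) in A1 and of B3gnt5 (0.16), Clcf1 (0.12) and Cd14 (-0.13) in A2, with the rlog difference in parentheses. The GC and length correction left Ggta1 at 0.12, Iigp1 at 0.10, Fbln5 at 0.01, B3gnt5 at 0.11, Clcf1 at 0.13 and Cd14 at -0.12. Signals and regulators of reactivity, 20 genes tested, had a median of 0.02 with 0 past the limma threshold and 3 at an unadjusted p under 0.05. The growth factor receptor gene Egfr had a difference of 0.18 ± 0.05 (SE, adjusted p = 0.072), which was 0.07 after the GC and length correction, and the receptor genes Lifr and Il6st differences of 0.10 and 0.09, which were -0.0015 and 0.0028 after that correction. Without on replicate 1, B3gnt5 and Egfr passed, with adjusted p of 0.047 and 0.027.

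**Figure D5:**
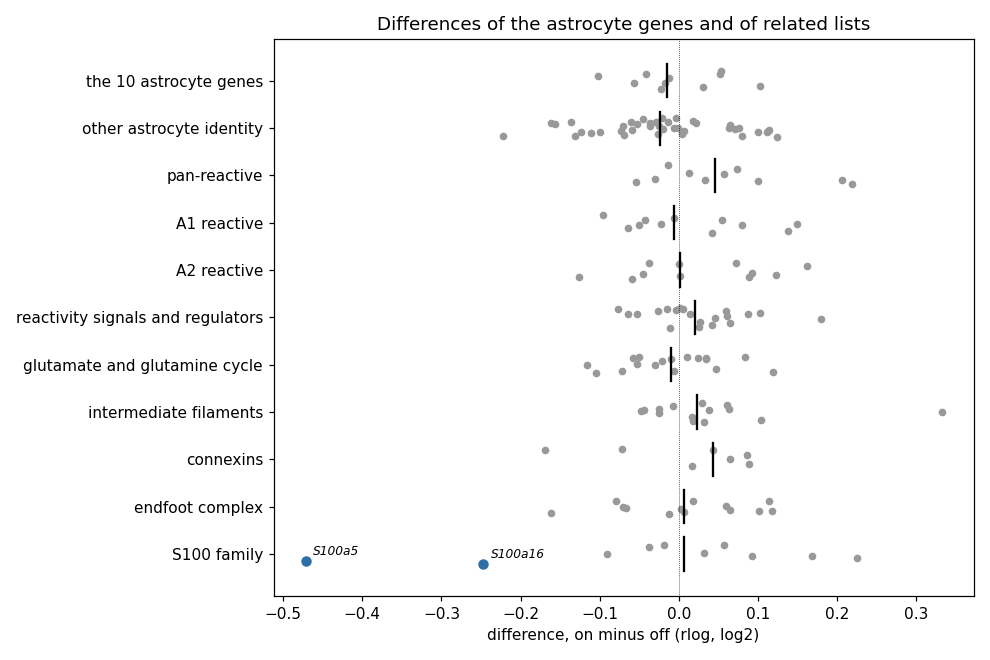
Differences, on minus off (rlog, log2), of the 10 astrocyte genes and of the tested genes in related lists; grey points did not pass the threshold, blue points did, and black bars are medians. The 2 points past the threshold are S100a5 and S100a16, both lower in on.

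Around glutamate handling, 17 genes were tested and 0 passed in limma, with 3 at an unadjusted p under 0.05 and a median of -0.01. The glutamine carrier gene Slc38a1 was at 0.12 ± 0.04 (SE, adjusted p = 0.084), the aspartate aminotransferase gene Got2 at -0.10 and the vesicular glutamate transporter gene Slc17a7 at -0.12. These were 0.06, -0.04 and -0.06 after the GC and length correction. Among 14 intermediate filament and linked genes 0 passed in limma, 1 had an unadjusted p under 0.05 and the median was 0.02. Nes, the nestin gene of precursor cells, reactive astrocytes and vessel walls, was at 8.81, 9.04, 9.33 and 9.10 in on replicates 1 to 4, against 8.74, 8.62 and 8.85 in the off libraries. On replicate 1 lay within the off values, and the difference of 0.33 ± 0.09 (SE, adjusted p = 0.075) passed without that library (adjusted p = 0.0014). The endothelial and mural values of on replicate 1 given for Cp and Osmr stand beside this one too. Synm and Plec were at 0.10 and 0.06. The corrected differences of Nes, Synm and Plec were 0.30, 0.05 and -0.00045.

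Of 13 endfoot genes 0 passed in limma, 4 had an unadjusted p under 0.05 and the median was 0.0060, with Dmd at 0.11 and Dtna, the dystrobrevin alpha gene, at 0.10 beside Mlc1. With the correction Dmd was at -0.04 and Dtna at 0.05. Without on replicate 1, Slc38a1 and Got2 passed, with adjusted p of 0.029 and 0.039. Of 7 connexins tested 0 passed in limma, 1 had an unadjusted p under 0.05 and the median was 0.04. The neuronal connexin gene Gjd2 and the endothelial Gja4 were at -0.17 (adjusted p = 0.098) and -0.07, and Gjb6, the connexin 30 gene of astrocytes, at 0.07. Gjd2 passed without on replicate 1 (adjusted p = 0.028). Corrected for GC content and length, Gjd2, Gja4 and Gjb6 were at -0.17, -0.04 and 0.12.

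Of 10 S100 genes tested beside S100b, 2 passed, both lower in on, beside 2.60% of all tested genes and 1.79% lower in on. At an unadjusted limma p under 0.05 there were 3, beside 20.7% of all tested genes. Differences were positive for 5 of the 10 and negative for 5. The median of the 10 was 0.01. S100a5, a gene of olfactory sensory neurons, had a difference of -0.47 ± 0.09 (SE, adjusted p = 0.018) and missed the threshold when on replicate 3 was left out (adjusted p = 0.068), when off replicate 1 was (0.061) and when off replicate 3 was (0.0955). Its adjusted p was 0.19 with no filter, and after the GC and length correction it was at -0.47 (adjusted p = 0.044). S100a16, which astrocytes express, was at 10.91, 10.66, 10.77 and 10.62 in on replicates 1 to 4, against 10.93, 11.01 and 11.03 in the off libraries. The groups did not overlap, though on replicate 1 lay just below off replicate 1. Its difference of -0.25 ± 0.06 (SE, adjusted p = 0.045) passed only without on replicate 1 among the 7 fits without 1 library, the adjusted p of the others running from 0.062 without off replicate 1 to 0.20 without off replicate 2, and after the GC and length correction it was -0.12 ± 0.04 (SE, adjusted p = 0.15). S100a16 did not pass with no filter, no intensity trend or the replicate block either (adjusted p of 0.25, 0.078 and 0.26). The third of the named S100 genes, S100a8, was at 0.23, or 0.22 with the correction, and did not pass.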

How the data were processed

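Brain RNA of 7 libraries, 4 on and 3 off, was sequenced after preparation with a stranded poly(A) kit, per the labels' protocols. The table the authors deposited holds log2-scale rlog values of 48526 Ensembl genes in 7 columns. Per the submitters' processing notes the tools were DESeq2 1.16.1, Subread 1.5.3, STAR 2.5.2, BWA 0.7.14-r1136 and cutadapt 1.9.1, with GRCm38, and no role is stated for any of them. Annotation release, strand setting and filters are not given in these sources, and depth is unknown.

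Symbols were matched for 48058 identifiers (99.0%). Genes with a mean value of 3 or more, 17896 in all, were tested with limma 3.58.1 in R 4.3.3: group term only, intensity trend, two-sided, Benjamini-Hochberg adjustment over all of them, threshold 0.05. Errors of differences are moderated standard errors. Lists are described by counts and medians. The GC and length correction removed from each library a smooth trend (mgcv 1.9.3) in 3 classes of mean value, for 17831 tested genes (99.6%) with GENCODE M21 transcripts. The fit was tested on simulated data. No libraries held identical values.

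The 10 genes, the lists, tests and alternatives were chosen with earlier results of these data known. The text names the 10 genes, per related list the genes past the threshold (up to 5) or the smallest p up to 3 genes, and the 3 genes nearest to Gfap and to Slc1a2 among those whose symbol is not a model number. Some genes of the lists are not reported here and were left out of list counts and medians, 1 of them past the threshold; they stayed in the fit. Olig1 and Olig2 fall outside this rule and were chosen after their values were seen.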

Additional observations from a re-analysis of the deposited data

Results flagged for a closer look

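A gap test asks whether 1 of the 4 on libraries lies far from the other 3. Run on 34 values (the 10 astrocyte genes, the list means and 2 properties of the libraries), it singled out 4, where chance gives about 1.7, since it picks about 1 in 20 such groups. None of the 10 astrocyte genes was among them. The 34 values come from the same 4 libraries and partly from the same genes. They are not independent, so 4 beside 1.7 does not measure an excess. In all 4 values singled out, the library apart was on replicate 1. The first principal component put it at -4.10 and on replicates 2 to 4 at 7.19 to 9.15. Spearman's rho of its deviations with transcript length was -0.0592, and that of on replicates 2 to 4 was 0.274 to 0.291. Its mean deviation of endothelial markers was -0.233, against 0.107 to 0.144, and that of ependymal markers 0.178, against -0.0990 to -0.0535. Without on replicate 1 the limma threshold was passed by 0 astrocyte genes, 19 of 149 related genes and 2917 of all 17896 tested genes.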

How the results depend on the processing

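The count of astrocyte genes past the limma threshold was 0 of 10 under every alternative run: no filter, a filter at a mean of 5, median centring, no intensity trend, array weights, a threshold of 0.1, the replicate block, the GC and length correction and each library left out. The count over all genes, 466 (146 higher, 320 lower), was 7 with no filter, 237 without the intensity trend, 2215 with array weights, 1182 at a threshold of 0.1 and 104 with the GC and length correction, and ran from 43 to 2917 with 1 library left out. The count of related genes, 2, was 0, 1, 13, 10 and 1 in the same order, and ran from 0 to 19 with 1 library left out; the cause was not tested. No filter adds genes with nearly constant low values to the adjustment and the variance trend. Signs that turned belonged to differences that did not pass. After the GC and length correction the sign turned for Gfap (0.024), Aqp4 (-0.011), S100b (0.015), Aldh1l1 (0.0010) and Plec (-0.00045). It also turned for Slc1a2 (0.10 to -0.019), Lifr (0.10 to -0.0015), Dmd (0.11 to -0.040) and Tnr (0.11 to -0.0057). After median centring it turned for Serpina3g (0.0037). With 1 library left out the differences ran from -0.13 to 0.039 for Gfap, -0.047 to 0.015 for Vim, -0.062 to 0.024 for Aldh1l1, -0.037 to 0.023 for Gja1, -0.19 to 0.00034 for Klk6, -0.13 to 0.020 for Lyz2 and -0.033 to 0.038 for Serpina3g. Same-numbered on and off libraries did not deviate together (correlations over genes of -0.23, -0.10 and 0.02 for numbers 1 to 3). The highest value for unlike numbers was 0.30, for on replicate 2 with off replicate 1. Such correlations cannot exclude a pairing of libraries, and the labels name none. The replicate block adds a term for the library number to the fit. No off library has number 4, so the differences under it equal those without on replicate 4 and are no separate check of them. With the replicate block 30 genes were called in all and 1 related gene, and Gfap (0.039), Vim (0.015) and Lyz2 (0.0011) turned sign. Depth per library is unknown, so precision rests on the spread of 4 and 3 libraries.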

Other observations

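Astrocyte genes that differ between brain regions varied between libraries in both groups. The mean deviation of 2 genes of forebrain astrocytes and cortex, Mfge8 and Lhx2, was -0.03, -0.11, -0.06 and -0.06 in on replicates 1 to 4, against 0.0031, 0.18 and 0.07 in off replicates 1 to 3. That of 3 genes richer in astrocytes outside the forebrain, Agt, Itih3 and Sparc, was 0.21, -0.11, -0.10 and -0.02 in on replicates 1 to 4, against 0.14, -0.19 and 0.08 in off replicates 1 to 3. Off replicate 2 was the highest library for the forebrain genes and the lowest for the others. The forebrain mean was below 0 in every on library and above 0 in every off library, though it rests on 2 genes. Values did not overlap in 1 of the 2, beside 15.2% of all tested genes. Those of Mfge8 overlapped, with on replicate 1 at 11.62 and off replicate 1 at 11.59. Of these 5 genes 0 passed in limma. Both forebrain genes and 0 of the other 3 had an unadjusted p under 0.05, beside 20.7% of all tested genes. The differences of the other 3 ran from -0.10 to 0.11 (Itih3), 1 positive and 2 negative. The median differences were -0.15 for the forebrain genes and -0.06 for the others. After the GC and length correction they were -0.08 and 0.04.

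Among markers of other cells, 2 of 7 oligodendrocyte precursor and lineage genes passed, both lower in on, beside 2.60% of all tested genes and 1.79% lower in on. In this list 3 genes had an unadjusted limma p under 0.05, beside 20.7% of all tested genes. Differences were positive for 2 and negative for 5, with a median of -0.03, and 0 passed after the GC and length correction. Olig1, a transcription factor gene of the oligodendrocyte lineage, was at 11.86, 11.71, 11.67 and 11.67 in on replicates 1 to 4, against 11.92, 12.01 and 12.09 in the off libraries, with a difference of -0.28 ± 0.05 (SE, limma adjusted p = 0.016). Olig2 had a difference of -0.24 ± 0.06 (SE, limma adjusted p = 0.049). After the GC and length correction they were at -0.15 and -0.18 and did not pass. Olig1 did not pass when on replicate 3 or 4 was left out (limma adjusted p of 0.076 and 0.063), when off replicate 2 or 3 was left out (adjusted p of 0.096 and 0.095), nor with no filter or the replicate block (adjusted p of 0.17 and 0.19). Olig2 did not pass without on replicate 3, on replicate 4 or any of the off libraries (limma adjusted p from 0.069 to 0.22), nor with no filter, median centring, no intensity trend or the replicate block (adjusted p of 0.24, 0.057, 0.075 and 0.27). Microglia, oligodendrocyte, neuron, endothelial, mural, ependymal and choroid plexus markers had 0 genes past the limma threshold, with 3, 0, 3, 2, 0, 0 and 0 at an unadjusted p under 0.05 and medians of -0.09, -0.06, -0.07, 0.09, 0.11, -0.03 and 0.00. All 6 mural cell markers had a positive difference.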
